A study of Mus musculus with 6 samples.

Results

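7SL is the RNA scaffold of the signal recognition particle (SRP), and it was examined here with the SRP proteins and the SRP receptor in keratinocytes of mouse skin wounds. The members were the probe sets annotated to Rn7s1 or Rn7s2, the mouse 7SL genes, and those annotated to Srp9, Srp14, Srp19, Srp68, Srp72, Srpr or Srprb alone. They came to 9 of the 21335 genes the array names, measured by 10 of its 35556 probe sets, 2 for 7SL and 8 for 7 protein genes. Srp54a, also looked for, has no probe set of its own and is described from 2 probe sets that name Srp54a, Srp54b and Srp54c together. The set was chosen by the diabetic against normal difference of 7SL signal on these same arrays, so the differences of its members are given as a description, without a test.

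Laser-captured keratinocytes from the tip of the epithelial tongue were profiled on whole-transcript arrays 3 days after wounding. The 3 diabetic samples came from mice given a diet high in fat and fructose for 16 weeks from 8 weeks of age, a dietary model that carries no engineered allele in the labels. The 3 normal samples came from mice kept on a control diet for as long. Captured cells of a sample were pooled over its sections, and the titles call the samples biological replicates, but no label ties each to a separate mouse, so errors measure the spread between these samples, which may be technical.

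SRP delivers ribosomes that make secreted and membrane proteins to the endoplasmic reticulum (ER). It binds the signal sequence as it leaves the ribosome, slows elongation, docks on the SRP receptor and hands the ribosome to the Sec61 channel. 7SL is made by RNA polymerase III, and the B1 repeats of rodents descend from it. Keratinocytes at a wound edge use this route for integrins, laminins, junction proteins, proteases and growth factors.

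7SL signal was higher on every diabetic array than on every normal array. Log2 signals were 9.25, 8.36 and 7.72 in the diabetic samples against 5.03, 6.29 and 3.49 in the normal samples, in replicate order here and throughout. Every array of both groups lay above the background limit of 1.98 to 2.12, which is the level that 95% of chemosensory receptor genes stayed under. Means were 8.44 ± 0.77 (SD, n = 3) in diabetic and 4.94 ± 1.40 (SD, n = 3) in normal samples. The difference was 3.51 on the log2 scale (SE 0.72, limma), an 11.4-fold difference in signal.

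Both 7SL probe sets, 10396066 and 10400704, held the same value on every array, and each names both genes. They therefore amount to 1 measurement, and Rn7s1 and Rn7s2 cannot be told apart. Such repeats were not confined to 7SL, since 702 probe sets (1.97%) fell into 225 groups with equal values on all 6 arrays.

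The gap between the lowest diabetic and the highest normal array was 1.43, or 2.70-fold. The arrays of a group spread over 1.53 in diabetic and 2.80 in normal samples, both wider than the gap. Normal replicates 2 and 3 set much of the size. Without normal replicate 3 the difference was 2.78 (6.89-fold), and without normal replicate 2 it was 4.18 (18.2-fold). It was 3.11 (8.61-fold) without diabetic replicate 1, and between 3.55 and 3.87 without each of the other 3 arrays in turn.

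**Figure D1:**
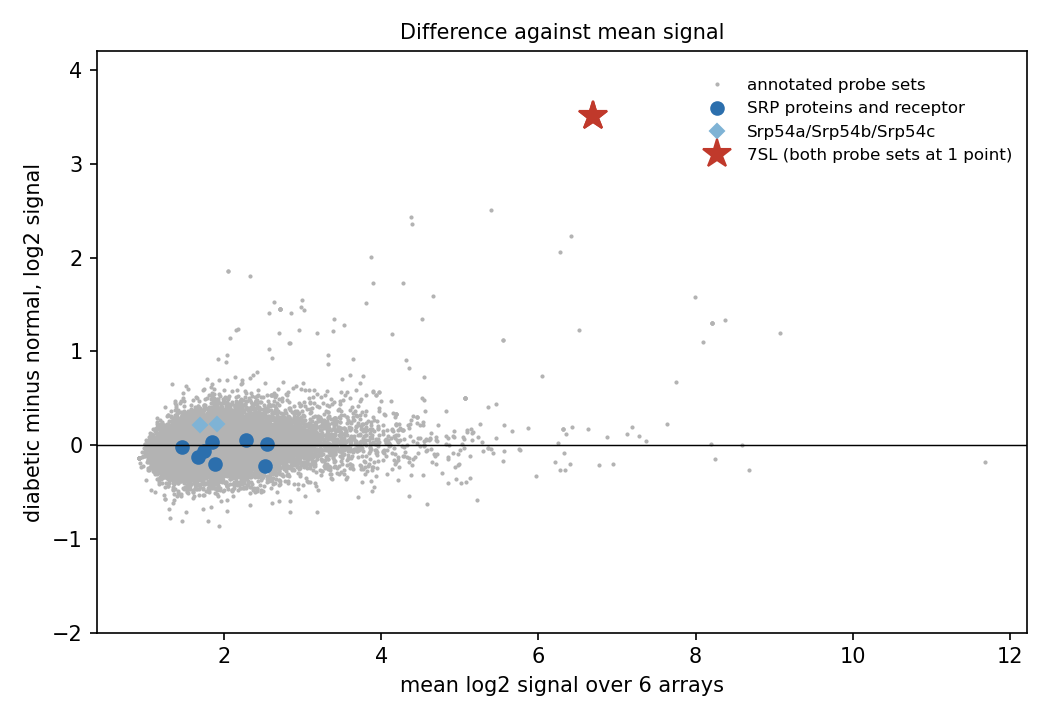
Diabetic minus normal difference (log2 signal) against the mean log2 signal over 6 arrays, with 1 grey point for each of 23410 annotated probe sets. 7SL (star) sits at a difference of 3.51, while the SRP protein and receptor probe sets (circles) and the Srp54a/Srp54b/Srp54c probe sets (diamonds) lie close to 0.

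Over all probe sets, limma with Benjamini-Hochberg adjustment called 0 of 35556 (0%), with 1971 at an unadjusted p under 0.05. An unadjusted p under 0.05 with at least a 1.5-fold higher signal in diabetic samples was met by 278 probe sets (0.782%). The 3 diabetic arrays lay above the 3 normal arrays for 4.6% of probe sets and below them for 6.48%. No annotated probe set had a larger difference than 7SL, a rank that restates the value its set was chosen by. Next was Rpl26, a ribosomal protein gene, at 2.51 (SE 0.64). Close after it came the probe sets naming Snord14d, Snord14c and Hspa8, at 2.43 and 2.36 (SE 0.90 each) without overlap. Both were far higher on diabetic replicate 1, at 7.91 and 7.89, than on the other diabetic arrays, at 4.09 to 4.75. Probe sets naming Hspa8 alone differed by 0.17, 0.45 and 1.73, all with overlap. The probe set naming Snord34 and Rpl13a followed at 2.23 (SE 1.07), with overlap.

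Other values moved with the groups on the same arrays. The share of genes above the background limit was 35.3%, 36.6% and 29.4% for diabetic against 27.4%, 28.4% and 28.7% for normal samples. The limit itself was 1.98, 2.01 and 2.11 on diabetic against 2.11, 2.11 and 2.12 on normal arrays. It was thus lowest on diabetic replicates 1 and 2, which had the largest shares. Of all genes, 1.83% were higher in diabetic samples at an unadjusted p under 0.05. All 7 skeletal muscle markers had a higher mean in diabetic samples, 1 of them at that p. Their summed linear signal was 42.4 to 49.9 in diabetic and 38.4 to 42.3 in normal samples, so the groups barely failed to overlap, with Mylpf, Tnni2, Acta1 and Ckm above the limit on all 6 arrays. Of 12 keratinocyte markers 5 had a higher and 7 a lower mean, 2 of them (Itgb4 and Sfn) were above the limit on every array and 5 on none, and their summed signal overlapped between groups. E-cadherin (Cdh1), by which the cells were located, was under the limit throughout, as were Krt6a, Krt16, Krt17 and Itga6, and Krt5 and Krt14 passed it on 2 diabetic and 0 normal arrays. For Krt14 this split rests partly on unequal limits. Diabetic replicate 2, at 2.05, passed its limit of 2.01, while normal replicate 2, at 2.07, stayed under its limit of 2.11. Other markers split the opposite way. Trp63 exceeded the limit in 0 diabetic and 2 normal samples, Perp in 0 and 1, and Dsp in 2 and 3. Array by array, 4, 5 and 3 of the 12 markers were detected in diabetic samples, beside 4, 3 and 5 in normal samples. Cdh1 was at 1.88, 1.84 and 1.92 in diabetic against 2.04, 2.06 and 2.01 in normal samples, without overlap. Perp, at 1.88, 1.70 and 1.86 against 1.96, 2.07 and 2.16, did not overlap either. Of the 12 markers, 2 were lower and 0 higher without overlap, beside 6.48% and 4.6% of all probe sets. Krt16, Perp, Trp63 and Dsp, the 4 with the smallest unadjusted p, differed by -0.26, -0.25, -0.31 and -0.30. None of the 12 was at an unadjusted p under 0.05. The part of these in the 7SL difference was not tested, and fewer cells of a type cannot be told apart from less RNA per cell in captured tissue.

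The other small RNAs made by RNA polymerase III did not share the size of the 7SL difference. 7SK (Rn7sk), which holds back transcription elongation, was at 8.02, 7.78 and 6.12 in diabetic and 4.94, 6.15 and 4.66 in normal samples. Its difference was 2.06 (SE 0.60), and the groups touched, with diabetic replicate 3 just under normal replicate 2. A second 7SK probe set, 10595140, was at 6.79, 4.12 and 5.47 against 3.76, 4.04 and 3.80, a difference of 1.60 (SE 0.61) without overlap. The RNA of RNase P (Rpph1), the enzyme that trims tRNA precursors, was at 8.84, 7.95 and 7.49 in diabetic and 7.11, 8.38 and 6.75 in normal samples. It differed by 0.68 (SE 0.51), by 0.31 without diabetic replicate 1 and by 1.16 without normal replicate 2, and the groups overlapped.

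The RNA of RNase MRP (Rmrp), which acts in ribosomal RNA processing, was at 6.39, 4.26 and 3.06 in diabetic samples and between 2.99 and 3.15 in normal samples. Its difference of 1.52 (SE 0.75) was 0.61 without diabetic replicate 1. The Y RNAs differed by 2.01 (Rny1, SE 0.91) and 0.19 (Rny3, SE 0.61) and the vault RNA Vaultrc5 by 0.10 (SE 0.85), all with overlapping groups. The Rnu6 probe set was lower in diabetic samples by 0.78 on the log2 scale (SE 0.22), without overlap, and was above the limit on 1 array only.

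**Figure D2:**
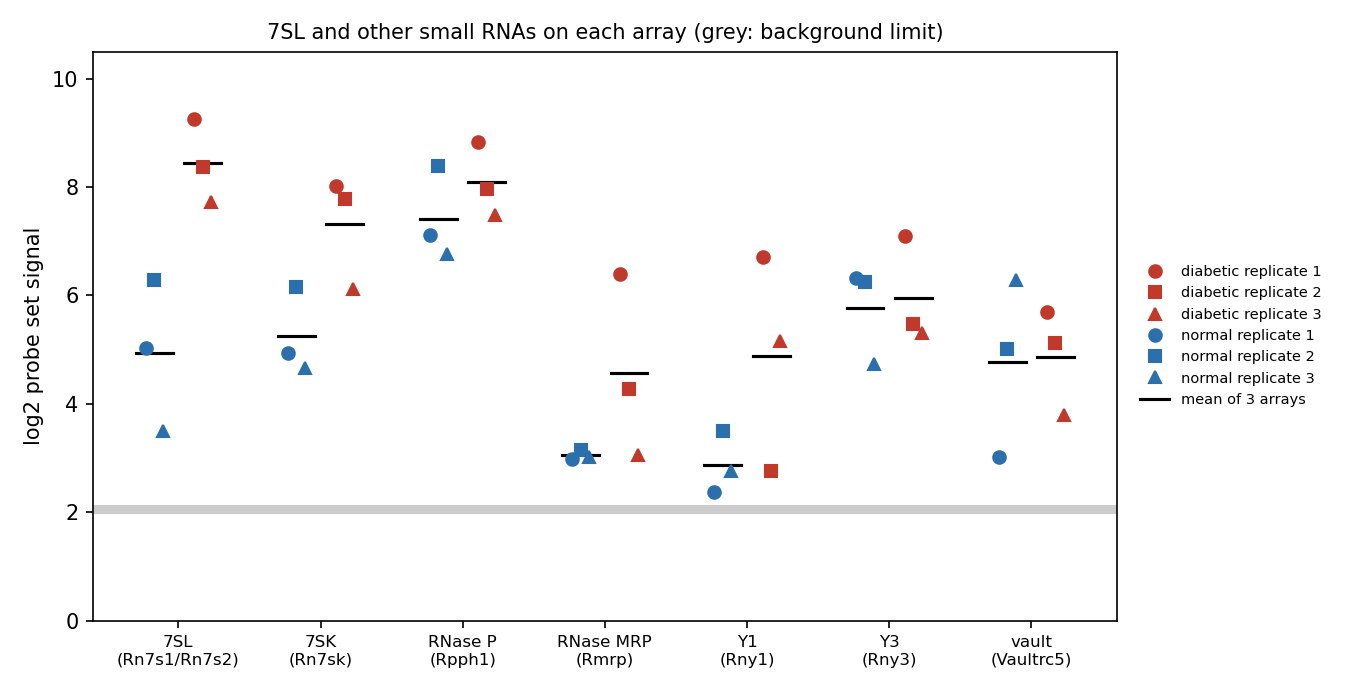
Log2 signal of 7SL and 6 other small RNAs on each array, with diabetic arrays in red, normal arrays in blue, a symbol per replicate number and a bar at the mean of 3 arrays. With the brightest probe set of each RNA, 7SL is the one of the 7 whose diabetic values all lie above its normal values, and the second 7SK probe set, not drawn, also separates the groups.

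Within the groups, 7SL followed the same order of arrays as RNase P RNA and the brighter 7SK probe set. Each was highest on diabetic replicate 1 and lowest on diabetic replicate 3, and in normal samples ran from replicate 2 through replicate 1 to replicate 3. The second 7SK probe set had another order in both groups. The correlation of deviations from the group means with 7SL was 0.94 for Rpph1, 0.85 for Rny3, 0.83 for Rn7sk, 0.67 for Rnu6, 0.51 for Rmrp, 0.36 for Rny1 and -0.10 for Vaultrc5, each over 6 arrays that share their RNA and scan.

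Taken against another small RNA of the same array, a comparison chosen after the values were seen, 7SL gave these values, which restate the difference the set was chosen by and support nothing. 7SL minus Rpph1 was 0.41, 0.41 and 0.23 in diabetic against -2.08, -2.09 and -3.27 in normal samples. The mean was 0.35 ± 0.10 (SD, n = 3) in diabetic and -2.48 ± 0.68 (SD, n = 3) in normal samples, so the spread was smaller than that of 7SL itself in both groups. 7SL minus Rn7sk was 1.23, 0.58 and 1.60 in diabetic and 0.09, 0.13 and -1.17 in normal samples. 7SL minus Rmrp overlapped between groups, at 2.86 to 4.66 in diabetic and 0.47 to 3.14 in normal samples. These are unequal differences within arrays and do not show that a reference RNA was constant.

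**Figure D3:**
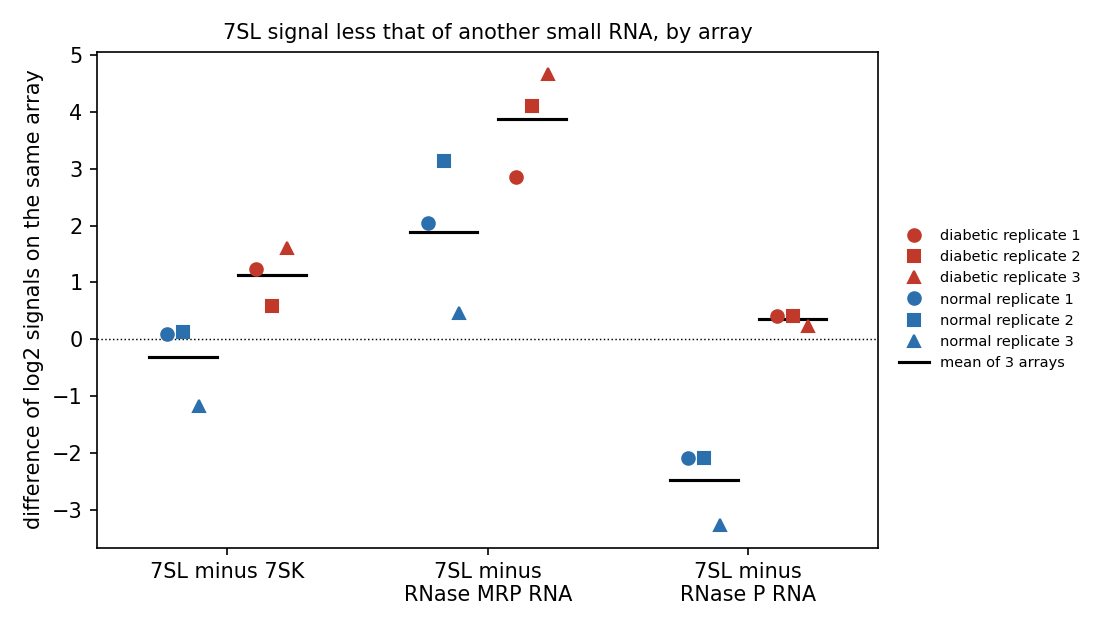
7SL signal less the signal of 7SK, RNase MRP RNA or RNase P RNA on the same array (difference of log2 signals), by array and group, with a bar at the mean of 3 arrays. Against RNase P RNA, diabetic values span 0.23 to 0.41 and normal values -3.27 to -2.08.

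The protein genes of SRP did not follow 7SL. The groups overlapped for all 7 genes with a probe set of their own. Over all probe sets, 4.6% were higher and 6.48% lower in diabetic samples without overlap. Of the 7 genes, 2 had a higher and 5 a lower mean in diabetic samples, and differences ran from -0.22 to 0.06. Their median was -0.06, beside -0.0039 over all 19938 genes. With single arrays left out the sign turned for Srp9, Srp68, Srp72 and Srprb. With limma's 95% confidence intervals the fold in signal lay between 0.657 and 1.44 for each of them. Most were dim, with Srp9 and Srp19 passing the limit on every array and Srp14, Srp72 and Srprb on none, and for the last 3 a difference in RNA cannot be read from the signal.

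Srp9 and Srp14 clasp the Alu domain of 7SL, the end that slows elongation. Srp9 was at 2.19, 2.84 and 2.64 in diabetic and 2.79, 2.61 and 2.25 in normal samples. It differed by 0.01 (SE 0.22), and the sign turned after quantile normalization or centring on the probe sets above the limit. Its lowest values were on diabetic replicate 1, the array with the most 7SL, and normal replicate 3, the one with the least. A second Srp9 probe set, 10473547, was under the limit on every array and differed by 0.04 (SE 0.13). Srp14 was at 1.59, 1.52 and 1.72 against 1.97, 1.58 and 1.66, a difference of -0.12 (SE 0.13). Normal replicate 1 carried it, since the difference without that array was -0.0060.

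Srp19, Srp68 and Srp72 bind the other end of 7SL, the S domain, and Srp19 prepares it for Srp54. Srp19 was at 2.30, 2.38 and 2.55 in diabetic and 2.91, 2.57 and 2.41 in normal samples. Its difference of -0.22 (SE 0.16) had the largest size among the 7 genes and fell to -0.08 without normal replicate 1. Srp68 was at 2.12, 2.32 and 2.50 against 2.06, 2.22 and 2.48, differing by 0.06 (SE 0.16), or by -0.04 once normal replicate 1 was left out. Srp72, its partner, was at 1.62, 1.76 and 1.75 against 1.78, 1.64 and 1.90, a difference of -0.06 (SE 0.11). The diabetic values of both partners lay among or next to the normal ones.

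Srp54 is the GTPase subunit that holds the signal sequence, and mice carry 3 copies of its gene. The brighter shared probe set, 10395739, was at 2.27, 2.01 and 1.80 in diabetic and 1.79, 1.74 and 1.86 in normal samples. Its difference of 0.23 (SE 0.14) was 0.10 without diabetic replicate 1, and the limit was passed on 2 diabetic and 0 normal arrays. The other, 10395788, was at 2.04, 1.76 and 1.62 against 1.55, 1.62 and 1.61, a difference of 0.21 (SE 0.13). On both, the diabetic arrays had the order of 7SL, but diabetic replicate 3 lay within the normal values.

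The likeness of the copies is visible at their start sites. RefSeq start-site windows (GRCm38.p6, plus strand, 5′ to 3′) of Srp54a at chr12:55080246-55080545 and Srp54c at chr12:55230127-55230426 are shown because the arrays cannot separate these genes. The capitals mark the longest stretch the windows share without a mismatch, 153 bases. The longest such stretch was 91 bases between Srp54b and Srp54c and 48 bases between Srp54a and Srp54b. These windows are not the probe targets. Of the 10 member symbols looked up among the RefSeq windows, 6 matched, Rn7s1, Rn7s2, Srp19 and Srp68 not among them.
Srp54a: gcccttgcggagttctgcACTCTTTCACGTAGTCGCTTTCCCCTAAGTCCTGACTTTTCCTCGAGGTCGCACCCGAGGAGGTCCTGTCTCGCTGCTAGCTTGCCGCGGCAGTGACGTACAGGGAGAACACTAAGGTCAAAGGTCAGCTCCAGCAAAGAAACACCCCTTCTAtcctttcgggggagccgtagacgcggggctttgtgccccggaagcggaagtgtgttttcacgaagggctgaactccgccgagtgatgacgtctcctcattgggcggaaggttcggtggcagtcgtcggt
Srp54c: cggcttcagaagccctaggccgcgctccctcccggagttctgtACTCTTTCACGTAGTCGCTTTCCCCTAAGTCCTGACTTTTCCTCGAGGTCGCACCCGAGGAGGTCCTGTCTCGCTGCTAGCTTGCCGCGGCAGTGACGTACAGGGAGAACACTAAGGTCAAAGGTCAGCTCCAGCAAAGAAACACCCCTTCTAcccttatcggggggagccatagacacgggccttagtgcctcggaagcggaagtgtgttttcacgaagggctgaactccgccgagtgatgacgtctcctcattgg

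The SRP receptor anchors the complex at the ER membrane. Srpr, its GTPase alpha subunit, was at 1.78, 1.79 and 1.76 in diabetic and 1.75, 2.02 and 2.17 in normal samples. It differed by -0.20 (SE 0.13). The diabetic arrays were nearly equal, and only normal replicate 3 passed the limit. The Srpr difference was -0.10 without that array and -0.32 without normal replicate 1. Srprb, the membrane-spanning beta subunit, was at 1.31, 1.48 and 1.57 against 1.49, 1.57 and 1.36. Its difference of -0.02 (SE 0.11) turned sign under quantile normalization and median centring.

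**Figure D4:**
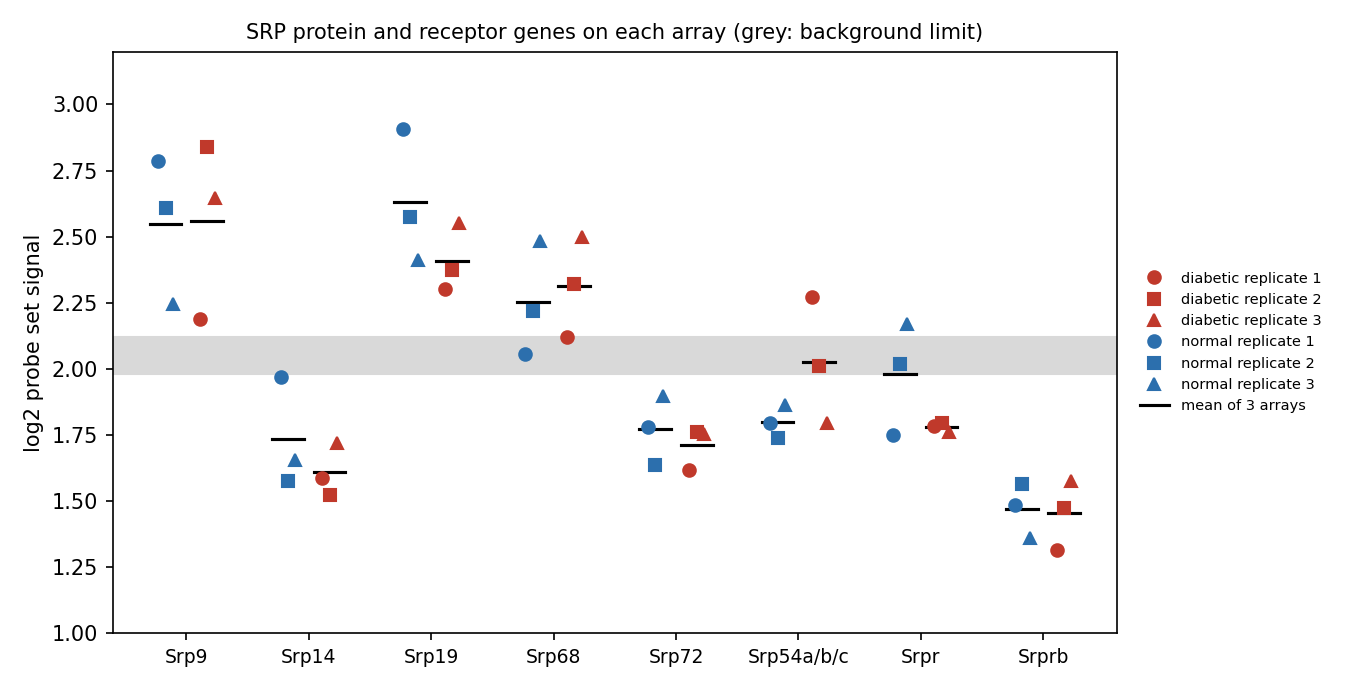
Log2 signal of 7 SRP protein and receptor genes and of the brighter Srp54a/Srp54b/Srp54c probe set on each array, with diabetic arrays in red, normal arrays in blue and a bar at the mean of 3 arrays. The groups overlap for every gene, and most values lie under or near the grey band, which spans the background limits of 1.98 to 2.12.

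Of the genes that act after SRP in the same pathway, none passed the adjusted threshold in either direction. The 17 measured genes of the translocon and signal peptide processing had 11 higher and 6 lower means and a median difference of 0.12. At an unadjusted p under 0.05 stood 1 of the 17, where among all genes 1.83% were at that p and higher and 1.89% lower. That gene was Sec11c, a catalytic subunit of signal peptidase, at 1.48, 1.66 and 1.71 in diabetic and 1.37, 1.35 and 1.41 in normal samples. Its difference was 0.24 (SE 0.10, limma adjusted p 0.877), and the other catalytic subunit gene, Sec11a, was at -0.25 (SE 0.14). Sec62, a channel partner, differed by 0.20 (SE 0.09) and Tram2 by 0.22 (SE 0.10), and all of these lay under the limit throughout. The groups did not overlap for Sec11c, Sec62 and Tram2, 3 of the 17, beside 4.6% of all probe sets higher without overlap. Sec61b, a channel subunit and the only gene of the list never under the limit, was at 2.59, 2.60 and 2.90 against 2.65, 2.61 and 2.46, a difference of 0.12 (SE 0.14).

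Of 12 oligosaccharyltransferase genes, whose products attach N-glycans in the ER, 5 had a higher and 7 a lower mean, with a median of -0.05 and none at an unadjusted p under 0.05. Ost4 differed by 0.30 (SE 0.16) and the catalytic subunit gene Stt3a by -0.26 (SE 0.13). The 18 genes of SRP-independent targeting and nascent chain binding had 13 higher and 5 lower means and a median of 0.08, with none at an unadjusted p under 0.05. Among them Naca, which keeps SRP from ribosomes without a signal sequence, was at 5.18, 2.86 and 2.65 in diabetic and 2.24, 2.27 and 2.50 in normal samples. The groups did not overlap, its difference of 1.23 (SE 0.63) was 0.42 without diabetic replicate 1, and the second Naca probe set differed by 0.47 (SE 0.21). Btf3, the partner of Naca, differed by 0.12 (SE 0.15), Bag6, which guides tail-anchored proteins, by 0.29 (SE 0.15) and Tmem208 by -0.30 (SE 0.14). The groups did not overlap for Naca and Bag6, 2 of the 18, beside 4.6% of all probe sets higher without overlap.

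Of 28 genes of RNA polymerase III and its initiation factors, 20 had a higher and 8 a lower mean, and the median difference was 0.03. Beside 1.83% higher and 1.89% lower among all genes, 1 of the 28 was at an unadjusted p under 0.05. This was the polymerase subunit gene Polr3d, at 2.89, 2.79 and 3.04 in diabetic and 2.05, 2.54 and 2.57 in normal samples. It differed by 0.52 (SE 0.18, limma adjusted p 0.867), without overlap. The largest subunit gene, Polr3a, differed by 0.27 (SE 0.12), and Crcp and Polr1c by 0.30 each (SE 0.16). The groups did not overlap for Polr3d, Polr3a and Crcp, 3 of the 28, beside 4.6% of all probe sets higher without overlap. The initiation factor genes Brf1 and Bdp1 differed by 0.19 (SE 0.12) and 0.06 (SE 0.13). Summed linear signal of the 28 was 120.7 to 125.8 in diabetic and 112.1 to 120.5 in normal samples, so the groups just missed each other.

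Proteins that bind, trim or export 7SL and like RNAs had 2 higher and 7 lower means among 9 genes, with a median of -0.07 and none at an unadjusted p under 0.05. Ssb, the La protein, differed by -0.04 (SE 0.11), the export factor gene Xpo5 by 0.10 (SE 0.14) and Ran by -0.35 (SE 0.20). Over all 91 measured genes of these lists and of the small RNA list, the median difference was 0.05. Beside 1.83% higher and 1.89% lower among all genes, 3 higher ones and 1 lower of the 91 had an unadjusted p under 0.05. Besides Sec11c and Polr3d those were Rn7sk, higher, and Rnu6, lower.

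**Figure D5:**
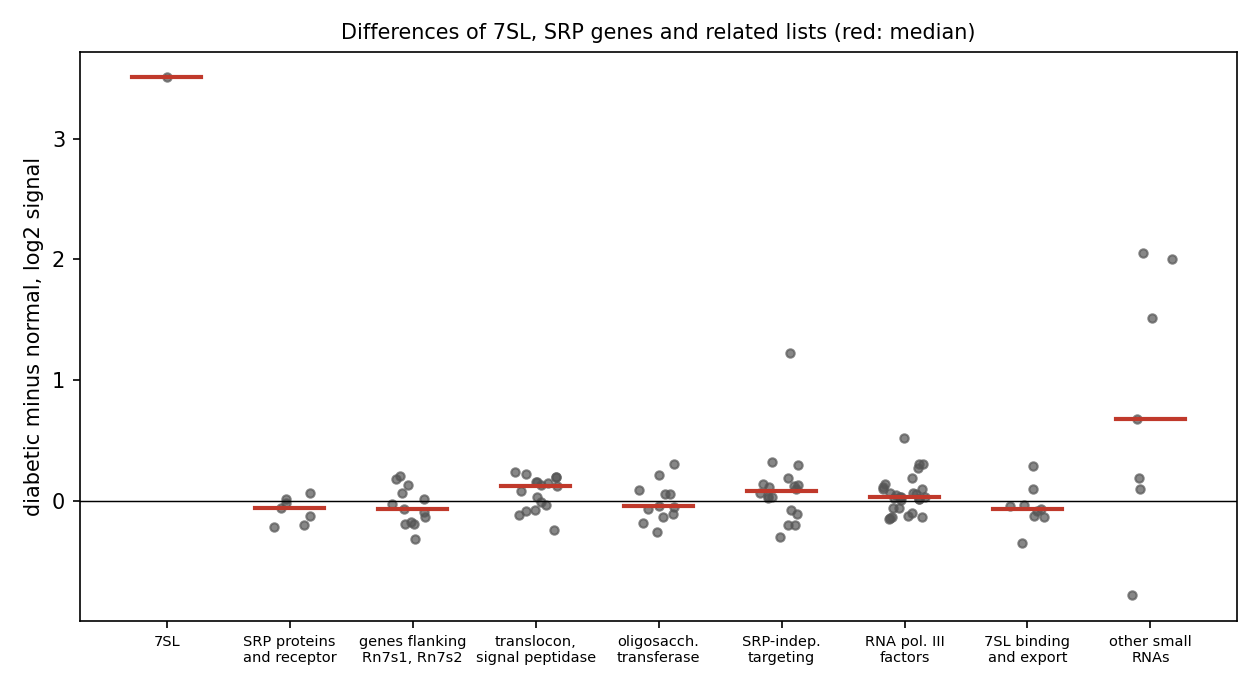
Diabetic minus normal difference (log2 signal) of 7SL, of the 7 SRP genes, of the genes flanking Rn7s1 and Rn7s2 and of 6 related lists, with a point for each gene and a red bar at the median. Medians lie between -0.07 and 0.12 for every group apart from 7SL at 3.51 and the other small RNAs at 0.68.

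Genes next to Rn7s1 and Rn7s2 on chromosome 12 showed no difference like that of 7SL. In the gene order of GRCm38.p6, 13 protein genes with a probe set of their own were taken, 7 between the 7SL genes and 3 on either side, a choice made after the 7SL values were seen. Of these 5 had a higher and 8 a lower mean, with a median of -0.07 and a range from -0.31 to 0.21. Rps29, the nearest of them before Rn7s1 and a ribosomal protein gene, was at 2.77, 2.60 and 2.29 in diabetic and 2.09, 3.52 and 2.01 in normal samples. It differed by 0.01 (SE 0.40). Nemf, the nearest before Rn7s2 and a ribosome quality control gene, differed by 0.13 (SE 0.11) and Arf6, a membrane traffic GTPase gene, by 0.21 (SE 0.14). The groups did not overlap for Mgat2 (-0.19) and Klhdc1 (-0.18), both lower in diabetic samples and under the limit throughout. These are 2 of 13 genes, beside 6.48% of all probe sets lower without overlap. None of the 13 was above the limit on all 6 arrays.

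Among the 3466 genes above the limit on all arrays, the 5 whose signal ran most like 7SL over the 6 arrays were Pgls (Pearson r 0.997), Ndufb8 (0.989), Hspb7 (0.986), Trio (0.980) and D730005E14Rik (0.970). Their differences were smaller, with 0.34 (SE 0.13) for Pgls, an enzyme gene of the pentose phosphate pathway, 0.53 (SE 0.16) for the complex I subunit gene Ndufb8, 0.39 (SE 0.14) for the small heat shock gene Hspb7 and 0.96 (SE 0.18) for Trio. Pgls was at 2.74, 2.66 and 2.55 in diabetic and 2.32, 2.44 and 2.16 in normal samples, the order of 7SL in both groups. By deviations from the group means, which leave the difference out, the 5 most alike were Pgls (0.992), Ppfibp2 (0.974), Bnip1 (0.973), Pdxk (0.973) and Rps10 (0.966). With 6 arrays and so many genes, high values of r arise easily, and they describe these arrays only. The same measure was -0.97 for Srp72 and -0.75 for Srp68, and between -0.34 and 0.16 for the other 5 SRP genes.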

How the data were processed

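The deposited values are log2 probe set signals made by the authors, 1 per probe set and array. Partek is named without a version in the submitters' processing notes. The sources used here do not give the background correction, normalization, summarization or logarithm base, and base 2 was taken from the range of the values. Array medians ran from 1.75 to 1.80. 0 columns belonged to other series.

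The array's annotation gave 1 symbol for 21789 probe sets, several for 1621 and none for 12146, and 21698 of the single symbols were matched to GRCm38.p6 by gene ID. The brightest of several probe sets stood for a gene. Limma 3.58.1 in R 4.3.3 (lmFit, eBayes with intensity trend, group as the only term) was fitted to all probe sets, with adjustment over all of them, and was tested on simulated data. The background limit was, on each array, the 95th percentile over 1194 chemosensory receptor genes. Marker and pathway lists, members and comparisons were chosen with earlier results of these data known. Named genes were all members, and up to 4 genes per pathway list and 4 keratinocyte markers by smallest unadjusted p. Also named were Rn7sk, Rmrp, Rpph1, Naca and the 5 most alike genes by each measure. Other genes were named for their roles or detection after their values were seen. These were Sec61b, Btf3, Brf1, Bdp1, Ssb, Xpo5, Rny3, Vaultrc5, muscle markers and further keratinocyte markers. Alternatives covered scaling, array weights, the variance model, filters, probe set choice, thresholds, a replicate block and each array left out.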

Additional observations from a re-analysis of the deposited data

How the results depend on the processing

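The 7SL difference stayed between 3.41 and 3.53 under the 7 other settings tried and between 2.78 and 4.18 with single arrays left out. Of the 7, only the scaling settings and array weights could move it. Equal probe set values fixed it at 3.51 with the brightest probe set alone and with the probe sets naming both genes. Equal group sizes fixed it there with a replicate block. The median of the SRP genes stayed between -0.09 and -0.04, and between -0.13 and -0.02 with single arrays left out. No setting called a probe set at an adjusted p under 0.05, with 0 also at 0.1 and 0 in each fit without 1 array. The median over the 91 related genes (0.05) was 0.064 with median centring, 0.016 with centring on probe sets above the limit, 0.10 among probe sets brighter than the median, 0.13 among probe sets above the limit on 3 or more arrays, 0.033 with the mean of a gene's probe sets, and 0.013 to 0.041 with single arrays left out. The count at an unadjusted p under 0.05 and 1.5-fold in either direction (590) was 260 without variance moderation and 164 at 2-fold. With fewer features it was 388 among those brighter than the median, 313 above the limit and 51 at gene level. Single arrays left out gave 646 to 907, the highest without normal replicate 2. Probe sets without overlap (3940) numbered 1943, 1277 and 2129 in those 3 smaller sets. With fewer arrays to separate they numbered 7036 to 8269, and 9637 kept 1 sign in all 3 pairs of equal replicate number. Same-numbered arrays did not deviate together (correlations -0.02, -0.01 and 0.03), which with 3 arrays per group cannot decide whether the numbers pair samples. A replicate block gave 684 at the unadjusted threshold. Elsewhere the cause of these shifts was not tested. With the limit at the 99th percentile, 8 and not 25 genes of the related lists passed it on all arrays. Signals near background limit what can be read for most SRP genes.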

Other observations

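2 probe sets that the annotation does not list had larger differences than 7SL and remain unnamed here. Probe set 10551998 was at 9.98, 7.28 and 8.35 in diabetic against 2.00, 6.55 and 5.23 in normal samples, differing by 3.94 (SE 1.19). Probe set 10429968 was at 9.75, 6.56 and 8.62 against 3.05, 6.10 and 4.57, a difference of 3.74 (SE 0.98). For both, diabetic replicate 2 was the lowest diabetic array, unlike 7SL, and the correlation of deviations from the group means with 7SL was 0.33 and 0.42 over 6 arrays.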
